A study of Mus musculus with 8 samples.

Results

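The 48 genes described here encode assembly factors of the large ribosomal subunit, proteins that build and mature the pre-60S particle without staying in the finished ribosome. They were taken by gene symbol from a list that was chosen with earlier results of these data known. Of the 48, 48 were present among the 23845 symbols of each deposited table. Mouse embryonic stem cells (mESC, passages 5 to 10 per the labels) with METTL5 knocked out (METTL5 KO) were compared with wild-type cells (WT) of the same type and passage range. METTL5 is the methyltransferase that places N6-methyladenosine on 18S ribosomal RNA. Ribosome-protected mRNA fragments (footprints, Ribo-seq) and total RNA (RNA-seq) were each sequenced from 2 KO and 2 WT libraries. No treatment is named. The replicates are described as biological, but the number of KO clones, the cultures behind each replicate and the way the gene was disrupted are not stated. P-values therefore measure the spread between these libraries, which may be technical and is estimated in part across genes.

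Large subunit assembly begins in the nucleolus on a precursor RNA transcribed by RNA polymerase I. Early factors fold and clamp the RNA and remove its internal spacers, GTPases and ATPases then strip factors from the particle, and late factors carry it to the cytoplasm and make it fit to join the small subunit. Many of these genes are highly expressed in dividing and pluripotent cells, where ribosome production is high.

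Footprints on Mettl5, the targeted gene, were at 4.08 and 4.79 CPM (footprint counts scaled to a library total of 1000000) in KO libraries, against 41.2 and 45.9 CPM in WT libraries, so the labels held. The footprint tables held 9322662 and 11487964 counts in KO libraries and 10466185 and 8401463 in WT libraries, and the fewest counts of any assembly factor in a footprint library were 131. The RNA-seq tables were far shallower, with 152195 and 173389 counts in KO libraries and 211353 and 219567 in WT libraries. The ribosomal RNA precursor Rn45s took 10.6% and 15.2% of footprint counts in KO libraries and 7.58% and 10.9% in WT libraries.

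Footprints on the assembly factors were lower in KO as a group, by small amounts that no gene of the group carried past the test when the replicates were treated as unpaired. Of the 48 genes, 44 had a negative log2 fold change (KO over WT), where 49.2% of the 12315 genes tested were negative. The median log2 fold change was -0.20 over the 48 genes, with quartiles of -0.30 and -0.12, and 0.01 over all genes tested. The edgeR quasi-likelihood test with Benjamini-Hochberg adjustment over all genes called 0 of 48 at an adjusted p below 0.05, where 2.44% of all genes were called (0.617% lower and 1.83% higher in KO). On counts simulated with a fixed spread, this fit recovered 61% of 2-fold changes. The lowest log2 fold change of the group was -0.69, smaller than 2-fold, so changes of the sizes seen here could be missed. At an unadjusted p below 0.05, 10 were lower in KO and 8.72% of all genes were. DESeq2 called 1, Mak16. Footprints follow both the amount of mRNA and the ribosomes on it, and in bulk samples fewer cells of a type and less RNA per cell cannot be told apart.

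In CPM, both KO libraries lay below both WT libraries for 27 of the 48 genes, where 25.5% of all genes tested were so ordered. For 1 gene, Wdr74, both KO libraries lay above both WT libraries, where 24.3% of all genes were so ordered, and for 20 genes the groups overlapped. For 24 genes the lower mean level in KO differed from WT by more than either pair of same-genotype libraries differed on the log2 scale, where 19.6% of all genes did. Without WT replicate 1 the median of the 48 genes was -0.11, and without WT replicate 2 it was -0.30. Without either KO library it was -0.22, so the size of the group's value depended mostly on the WT library kept.

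**Figure D1:**
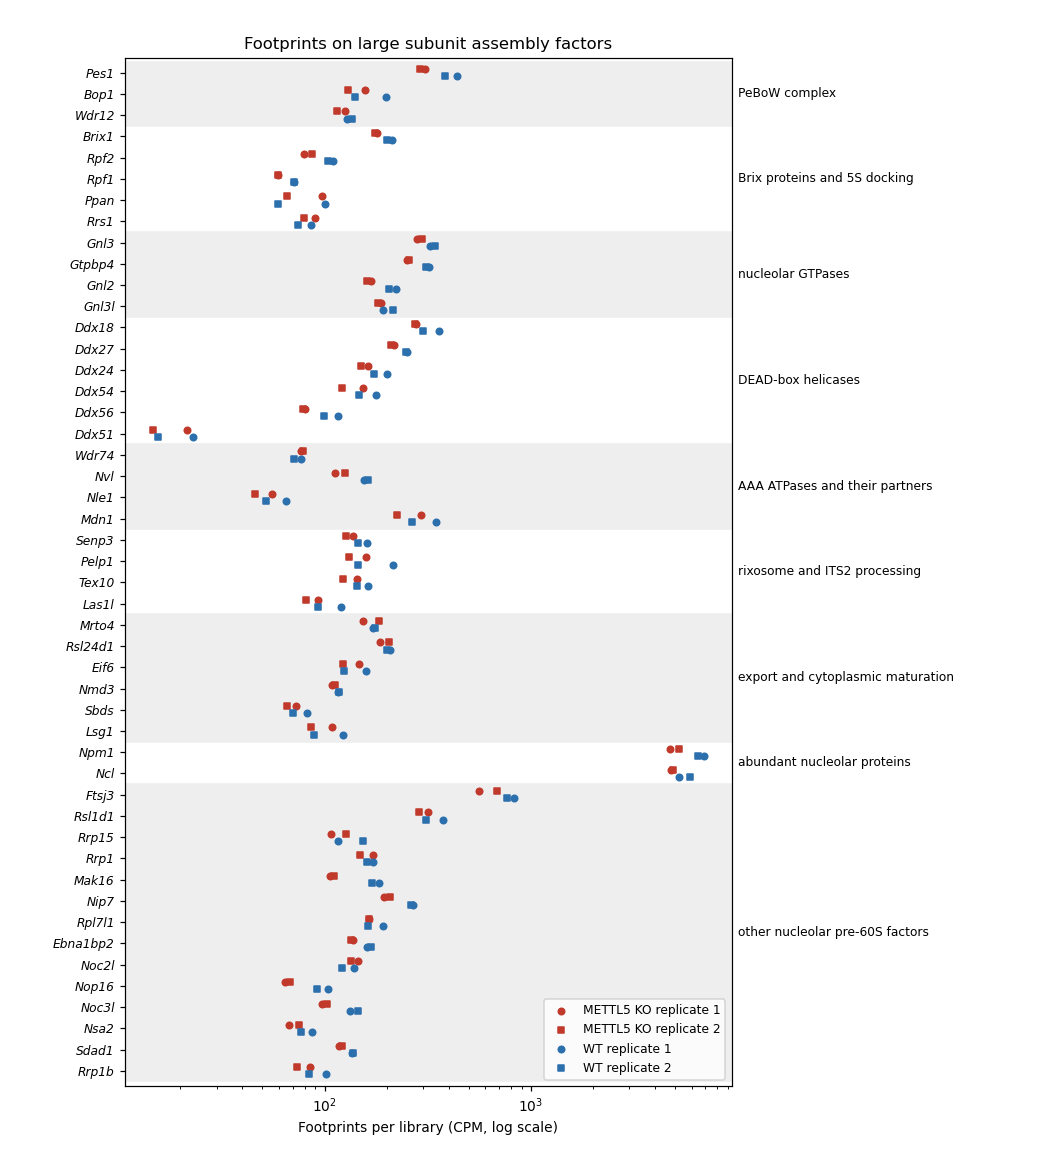
Footprint level (CPM, log axis) of each of the 48 assembly factors in the 2 METTL5 KO libraries (red) and the 2 WT libraries (blue), grouped by role, with circles for replicate 1 and squares for replicate 2. Red points lie left of both blue points for 27 genes, among them Mak16, Nop16 and Pes1, and Npm1 and Ncl, far to the right, hold most of the counts.

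KO and WT footprint libraries with the same number carry a common tag in their names, whose meaning the labels leave unsaid. With the replicate number as a block, the edgeR test called 12 of the 48 genes, 12 lower and 0 higher in KO. That is 25% of the group, where 11.3% of all genes were called lower. Within replicate 1 the median log2 ratio of KO over WT CPM was -0.23 over the 48 genes and 0.04 over all genes tested. Within replicate 2 it was -0.20 over the 48 genes and -0.06 over all genes tested. The ratio was below 0 in both replicate numbers for 41 of the 48 genes, where 36.6% of all genes were, and above 0 in both for 3, namely Noc2l, Rrs1 and Wdr74, where 34.7% of all genes were. The block leaves 1 residual degree of freedom per gene, so its p-values rest largely on a spread estimated across genes. SE with the block were 0.11 for Bop1, Mak16 and Rrp15, against 0.19, 0.15 and 0.19 without it. Same-numbered KO and WT footprint libraries deviated together from their genotype means (correlation 0.397 across 12315 genes, which are not independent replicates). This value does not tell what the numbers stand for, and whether they mark shared cultures was not tested.

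**Figure D2:**
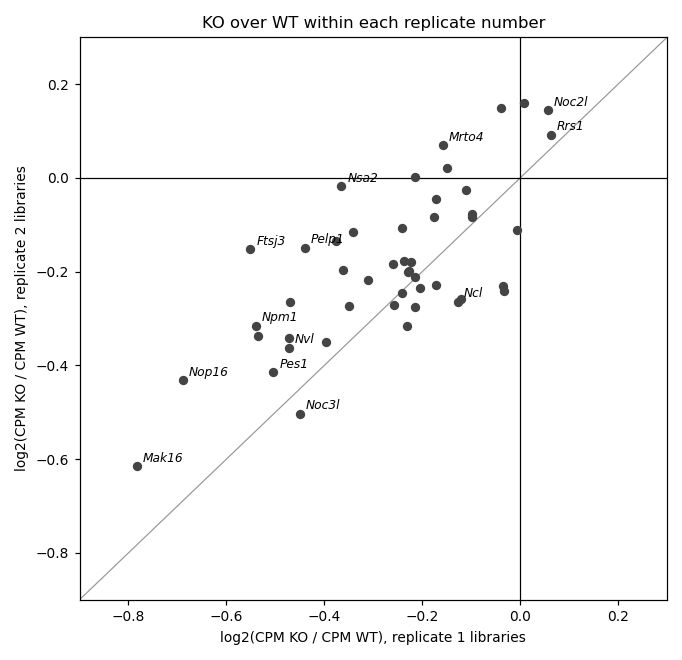
Log2 ratio of KO over WT footprints (CPM) among replicate 1 libraries (x axis) and among replicate 2 libraries (y axis), 1 point per assembly factor, with the line of equal ratios in grey. For 41 of 48 genes the point lies below 0 on both axes, with Mak16 lowest, while Ftsj3 and Nsa2 were far lower in replicate 1 than in replicate 2.

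The 12 genes called with the block were Mak16, Nop16, Noc3l, Pes1, Ddx56, Nvl, Nip7, Gnl2, Rpf2, Ftsj3, Gtpbp4 and Pelp1. Of these, 6 lie on chromosome 8 or 11, whose genes as a whole had lower footprints in KO (median log2 fold change -0.22 over 676 genes of chromosome 8 and -0.25 over 1041 genes of chromosome 11). In all, 9 of the 48 genes lie on these chromosomes, with a median of -0.39, and 39 lie elsewhere, with a median of -0.19 and 35 negative values. None of the 48 lies on chromosome 6, the other chromosome with a lower median (-0.38). With chromosome medians removed the median of the 48 genes was -0.19, and 42 were negative. With the block and the chromosome medians removed together, 14 genes were called, where 8.83% of all genes were called lower. Mak16, Nop16, Noc3l, Nvl, Gnl2, Rpf2 and Gtpbp4 were called in both block fits. Pes1, Ddx56, Nip7, Ftsj3 and Pelp1 were no longer called, and Bop1, Brix1, Rpf1, Ddx24, Ddx54, Ebna1bp2 and Rrp1b were called in their place.

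The promoters of these genes were searched for the letters CACGTG, the E-box that MYC and MAX are known to bind. RefSeq windows (GRCm38.p6, the assembly behind mm10) of 250 bases before and 50 bases from the annotated start were used. The motif reads the same on both strands. Windows were held for 39 of the 48 genes, and 8 of these (20.5%) held the motif, namely Mdn1, Nle1, Nmd3, Pelp1, Pes1, Rpf2, Sdad1 and Tex10. It was held by 12.2% of the 9292 genes with a window that were tested in Ribo-seq and by 8.09% of all 27025 genes with a window. Among the 12 genes with the smallest p, 9 had a window and 2 held the motif, Pes1 and Rpf2, whose sequences are shown 5′ to 3′ from 100 bases before the start to 30 bases from it, with the motif in capitals. The Pes1 stretch is chr11:3963875-3964004 on the plus strand and the Rpf2 stretch chr10:40246950-40247079 on the minus strand.
Pes1: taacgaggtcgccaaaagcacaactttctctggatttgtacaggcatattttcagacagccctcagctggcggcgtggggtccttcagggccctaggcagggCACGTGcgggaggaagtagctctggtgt
Rpf2: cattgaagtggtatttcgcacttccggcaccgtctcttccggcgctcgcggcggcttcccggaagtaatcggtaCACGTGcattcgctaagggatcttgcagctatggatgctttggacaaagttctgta
In Pes1 the motif begins 2 bases after the start base, and in Rpf2 it begins 26 bases before the start used here. RefSeq lists 2 starts for Rpf2, and from the other one the motif begins 34 bases after the start base. A match in letters is not evidence of binding in these cells, and a link between the motif and the lower footprints was not tested.

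Pes1, Bop1 and Wdr12 encode the PeBoW complex, a trimer needed to process the internal spacers of the precursor RNA. Pes1 had 307 and 288 CPM in KO libraries, against 436 and 384 CPM in WT libraries. The groups did not overlap, and the log2 fold change was -0.45 (SE 0.15, adjusted p = 0.158 without the block and 0.00190 with it, edgeR). Pes1 lies on chromosome 11, and with the block and chromosome medians removed it stood at -0.20 (adjusted p = 0.254). Its partners moved less, with log2 fold changes of -0.24 for Bop1, whose groups overlapped, and -0.12 for Wdr12, whose groups did not. Per transcript length, in deposited TPM, the trimer was uneven. Pes1 was at 161 ± 3.23 TPM in KO and 224 ± 16.2 TPM in WT, Bop1 at 91.5 ± 10.3 TPM in KO and 109 ± 25 TPM in WT, and Wdr12 at 64.6 ± 2.54 TPM in KO and 71.5 ± 4 TPM in WT (SD, n = 2 each). Pes1 thus had the most footprints per length of the 3 subunits in both genotypes.

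Brix1, Rpf1, Rpf2 and Ppan share the Brix domain of early pre-60S proteins, and Rpf2 works with Rrs1 to dock the 5S RNA particle, as known from yeast. Rpf2 had 79.5 and 86.7 CPM in KO libraries, against 110 and 104 CPM in WT libraries. The groups did not overlap, and it stood at -0.35 (SE 0.15, adjusted p = 0.256 without the block and 0.0118 with it, edgeR). Rrs1, its partner, had 89.6 and 79.0 CPM in KO libraries, against 85.8 and 74.2 CPM in WT libraries, with overlapping groups (0.09, SE 0.16, adjusted p = 0.819). The 2 docking partners thus had fold changes of opposite sign, a difference that was not tested, and without WT replicate 2 Rrs1 stood at -0.02. Brix1 and Rpf1 stood at -0.20 and -0.25 without overlap. Ppan varied most between replicates, at 97.4 and 65.9 CPM in KO libraries and 100 and 59.4 CPM in WT libraries, with a log2 fold change of 0.04. Its exons overlap those of 2 small RNA genes annotated inside it.

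For each of the 4 nucleolar GTPases both KO libraries lay below both WT libraries, where 25.5% of all genes tested were so ordered. Gnl2 (the counterpart of yeast Nog2) had 168 and 160 CPM in KO libraries, against 222 and 204 CPM in WT libraries (log2 fold change -0.36, SE 0.15, adjusted p = 0.218 without the block and 0.00961 with it, edgeR). Gtpbp4 (yeast Nog1) had 251 and 256 CPM in KO libraries, against 320 and 310 CPM in WT libraries (-0.30, SE 0.15, adjusted p = 0.323 without the block and 0.0462 with it, edgeR). Both KO values lay well below both WT values for these 2 enzymes, which sit on the nuclear pre-60S particle. Gnl3, or nucleostemin, a GTPase known for its high level in stem cells, stood at -0.20, and its paralogue Gnl3l at -0.12, and neither passed in either fit. Summed, the 4 GTPases took 885 and 896 CPM in KO libraries, against 1057 and 1072 CPM in WT libraries.

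Of the 6 DEAD-box helicases, which unwind RNA duplexes in the particle, 6 had negative log2 fold changes, from -0.43 to -0.09. Ddx56 had 80.4 and 78.4 CPM in KO libraries, against 117 and 99.1 CPM in WT libraries. Its groups did not overlap (-0.43, SE 0.16, adjusted p = 0.181 without the block and 0.00202 with it, edgeR). It lies on chromosome 11 and stood at -0.17 (adjusted p = 0.298) with the block and chromosome medians removed. Ddx18, Ddx24 and Ddx27 stood at -0.25, -0.26 and -0.21 without overlap, and Ddx54 at -0.24 with overlap. Ddx51 had the lowest footprint level per length of the 48 genes, at 5.86 ± 1.41 TPM in KO and 6.29 ± 1.61 TPM in WT (SD, n = 2 each). Its counts followed the replicate number more than the genotype, with 21.5 and 14.7 CPM in KO libraries and 23.0 and 15.6 CPM in WT libraries (-0.09, SE 0.25, adjusted p = 0.881).

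Mdn1 and Nvl are AAA ATPases that pull factors off the particle, and Nle1 and Wdr74 are the proteins they act on. Nvl had 112 and 126 CPM in KO libraries, against 156 and 162 CPM in WT libraries. The groups did not overlap (-0.40, SE 0.15, adjusted p = 0.205 without the block and 0.00281 with it, edgeR). Wdr74, which NVL releases in human cells, had 76.8 and 78.9 CPM in KO libraries, against 76.4 and 70.7 CPM in WT libraries, and passed in neither fit (0.10, SE 0.16, adjusted p = 0.791). Mdn1, among the longest proteins of the cell, had 292 and 224 CPM in KO libraries and 345 and 265 CPM in WT libraries, with overlapping groups (-0.24, SE 0.18, adjusted p = 0.538). It stood at -0.03 without WT replicate 1 and at -0.10 without KO replicate 2. In both genotypes its replicate 2 library was the lower. Per length Mdn1 was low, at 22.4 ± 3.65 TPM in KO and 26.8 ± 4.52 TPM in WT (SD, n = 2 each). Nle1, on chromosome 11, stood at -0.20 and at 0.05 with chromosome medians removed.

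Las1l, the nuclease that cuts the second internal spacer, and Pelp1, Tex10 and Senp3, subunits of the complex it works with, stood between -0.31 and -0.19. Pelp1, a scaffold on chromosome 11, had 159 and 131 CPM in KO libraries, against 215 and 146 CPM in WT libraries. Its groups overlapped, and it passed with the block (adjusted p = 0.0494) but not without it (0.447, edgeR) nor with the block and chromosome medians removed (0.882). Per length the 4 subunits lay close together, from 52.6 TPM for Las1l to 86.1 TPM for Senp3 in KO and from 64.6 TPM for Las1l to 101 TPM for Senp3 in WT.

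The factors of export and cytoplasmic maturation had a median log2 fold change of -0.07, which lay between -0.15 and -0.01 when 1 library was left out. They were Nmd3, the export adaptor, Lsg1, the GTPase that releases it, Eif6, which keeps the subunits apart, Sbds, which helps to evict it, and Rsl24d1 and Mrto4, placeholders for ribosomal proteins. Their log2 fold changes ran from -0.12 to -0.02, and 0 of 6 passed with or without the block. With chromosome medians removed their median was -0.12, and the medians of the other sets grouped by role ran from -0.30 to -0.14. For 1 of the 6, Nmd3, both KO libraries lay below both WT libraries, where 25.5% of all genes tested were so ordered. Nmd3 was at 109 and 112 CPM in KO against 116 and 118 CPM in WT. Summed, the 6 genes took 777 and 774 CPM in KO libraries, against 858 and 777 CPM in WT libraries, which is 90.6% of WT in replicate 1 and 99.6% in replicate 2. The 14 other nucleolar factors, given last, came to 78.0% of WT in replicate 1 and 87.0% in replicate 2. Brix1, Rpf1, Rpf2, Ppan and Rrs1, summed, lay nearer to the export set, at 87.5% in replicate 1 and 91.3% in replicate 2. Differences between these sets were not tested.

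Npm1 (nucleophosmin) and Ncl (nucleolin) are abundant multifunctional nucleolar proteins, and together they held between 57.3% and 61.0% of the footprint counts on the 48 genes. Npm1 had 4737 and 5190 CPM in KO libraries, against 6889 and 6458 CPM in WT libraries. The groups did not overlap, and the log2 fold change of -0.41 (SE 0.18) passed in neither fit (adjusted p = 0.243 without the block and 0.104 with it, edgeR). Npm1 lies on chromosome 11 and stood at -0.16 with chromosome medians removed. Ncl had 4768 and 4892 CPM in KO libraries, against 5208 and 5878 CPM in WT libraries (-0.18, SE 0.17, adjusted p = 0.611). Per length Npm1 ranked first, at 5590 ± 511 TPM in KO and 7576 ± 193 TPM in WT, and Ncl next, at 919 ± 39.1 TPM in KO and 1061 ± 108 TPM in WT (SD, n = 2 each). Without Npm1 and Ncl, the other 46 genes together took 7075 and 6892 CPM in KO libraries, against 8678 and 7883 CPM in WT libraries.

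The lowest fold changes were found among the other nucleolar pre-60S factors. Mak16, an early factor known from yeast to act with Rpf1, had 106 and 111 CPM in KO libraries, against 183 and 170 CPM in WT libraries. That is 109 ± 3.29 CPM in KO and 177 ± 9.23 CPM in WT (SD, n = 2 each), and both KO libraries lay far below both WT libraries. Its log2 fold change was -0.69 (SE 0.15), with an adjusted p of 0.0513 without the block and 4.74e-08 with it (edgeR). Mak16 lies on the minus strand of chromosome 8 (31159463 to 31168764, GRCm38), and exons of Tti2 on the other strand overlap its own. With the block and chromosome medians removed it stood at -0.46 (adjusted p = 0.000621).

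Nop16, a small nucleolar protein of chromosome 13, had 64.2 and 67.9 CPM in KO libraries, against 104 and 91.5 CPM in WT libraries (-0.55, SE 0.16, adjusted p = 0.113 without the block and 5.57e-05 with it, edgeR). Noc3l, on chromosome 19, had 97.3 and 102 CPM in KO libraries, against 133 and 145 CPM in WT libraries (-0.46, SE 0.15, adjusted p = 0.146 without the block and 0.000485 with it, edgeR). Neither gene overlapped between genotypes, and both lie outside the chromosomes with lower medians. Nip7, which binds the precursor RNA, had 194 and 207 CPM in KO libraries, against 269 and 263 CPM in WT libraries (-0.39, SE 0.15, adjusted p = 0.204 without the block and 0.00479 with it, edgeR). It lies on chromosome 8 and stood at -0.17 (adjusted p = 0.312) with the block and chromosome medians removed. Ftsj3, the counterpart of the yeast RNA methyltransferase Spb1, had 562 and 685 CPM in KO libraries, against 823 and 762 CPM in WT libraries (-0.33, SE 0.18, adjusted p = 0.360 without the block and 0.0451 with it, edgeR). Its KO libraries differed from each other, yet both stayed below both WT libraries. Ftsj3 lies on chromosome 11 and stood at -0.09 (adjusted p = 0.697) with the block and chromosome medians removed, and at -0.15 without KO replicate 1.

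Noc2l, a relative of Noc3l in name and in nucleolar function, had the highest fold change of the 48 genes without the block. It had 145 and 134 CPM in KO libraries, against 140 and 122 CPM in WT libraries, with overlapping groups (0.11, SE 0.15, adjusted p = 0.749). Without WT replicate 2 it stood at 0.006, below Wdr74 at 0.03, and with chromosome medians removed at 0.06, below Rrs1 at 0.09. The paralogues Rrp1 and Rrp1b stood at -0.05 and -0.22. Rrp1b had 85.1 and 73.9 CPM in KO libraries, against 102 and 83.9 CPM in WT libraries (SE 0.16, adjusted p = 0.521), and per length it was at 26 ± 1.97 TPM in KO and 30.5 ± 3.68 TPM in WT (SD, n = 2 each). Without WT replicate 1 Rrp1b stood at -0.06. The other genes of this set, Ebna1bp2 (-0.26), Sdad1 (-0.19), Rrp15 (-0.18), Nsa2 (-0.18), Rsl1d1 (-0.17) and Rpl7l1 (-0.10), a paralogue of a large subunit protein gene, passed neither without the block nor with it.

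**Figure D3:**
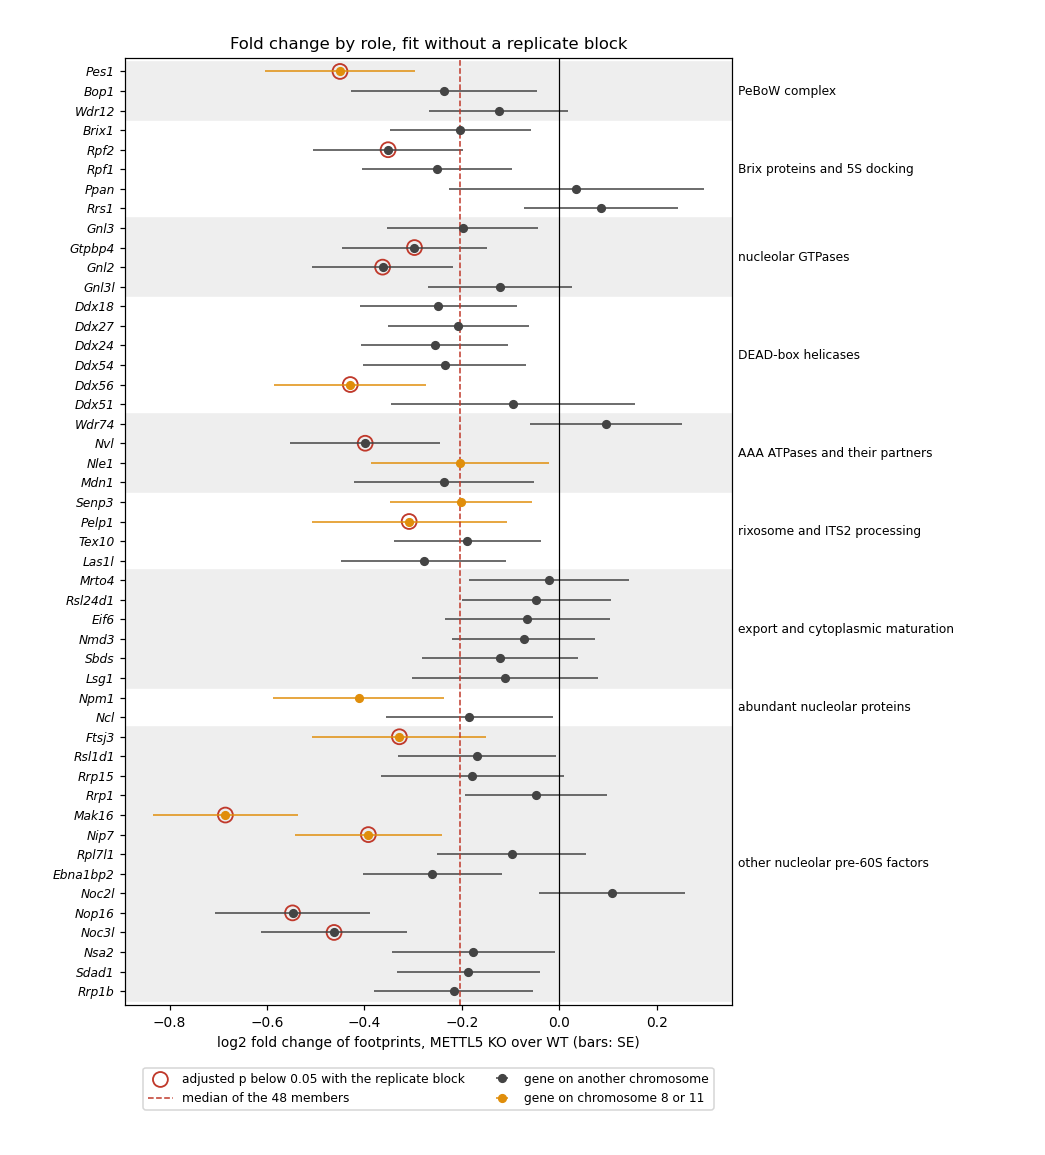
Log2 fold change of footprints, METTL5 KO over WT, with its SE, for each of the 48 assembly factors by role, from the fit without a replicate block. Orange marks genes on chromosome 8 or 11, red circles the 12 genes with an adjusted p below 0.05 with the block, and the dashed line the median of -0.20, and 44 of 48 points lie left of 0.

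Other genes of ribosome production were read from lists compiled for this comparison, also with earlier results of these data known. Of all genes tested, 49.2% were negative, 0.617% were called lower without the block, and 11.3% were called lower with it. Of 20 further pre-60S factors, 19 were negative (median -0.32), with 1 called lower without the block and 11 with it. Of 49 genes of the small subunit and 18S maturation, 45 were negative (median -0.28), with 1 called lower without the block and 23 with it. The called genes were Rbm28, a nucleolar pre-60S factor (-0.77, SE 0.14, adjusted p = 0.0317, edgeR), and Bms1, a GTPase of the small subunit precursor (-0.95, SE 0.15, adjusted p = 0.0170, edgeR). Both lie on chromosome 6, and with chromosome medians removed they stood at -0.39 (adjusted p = 0.220) and -0.57 (adjusted p = 0.102). The smallest p values of the further pre-60S list after Rbm28 were those of Urb2 (-0.65) and Nop2 (-0.70), and of the small subunit list after Bms1 those of Ddx47 (-0.72) and Utp6 (-0.67), and these 4 lie on chromosomes 6, 8 or 11. Of 15 genes of RNA polymerase I and its factors, 13 were negative (median -0.23), with 0 called without the block and 3 lower with it, led by Polr1a (-0.71), Polr1d (-0.44) and Taf1c (-0.53). Of 8 snoRNP proteins, which guide RNA modification, 7 were negative (median -0.14), with 2 lower with the block, Nop58 (-0.44) and Nhp2 (-0.42), and Dkc1 stood at -0.18. With chromosome medians removed, Polr1a of chromosome 6 stood at -0.32, Taf1c of chromosome 8 at -0.30 and Nhp2 of chromosome 11 at -0.17. Without WT replicate 1 the median was -0.21 for the further pre-60S factors, -0.16 for the small subunit list, -0.14 for RNA polymerase I and -0.05 for the snoRNP proteins. Without WT replicate 2 these medians were -0.52, -0.40, -0.36 and -0.26, and without KO replicate 1 that of the further pre-60S factors was -0.49.

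Of the 48 ribosomal proteins of the large subunit tested, 23 were negative and 25 positive, with a median of 0.02. Without the block 0 were called, where 2.44% of all genes were. With it 3 were lower and 2 higher, where 11.3% and 12.7% of all genes were. Rpl22l1 (-0.53), Rpl32 (-0.51) and Rplp1 (0.41) had the smallest p values, and Rpl32, on chromosome 6, stood at -0.13 (adjusted p = 0.751) with chromosome medians removed. The median of this list was -0.14 without WT replicate 2, -0.07 without KO replicate 2, 0.07 without KO replicate 1 and 0.15 without WT replicate 1, so its sign depended on the libraries kept. The assembly factors and the ribosomal proteins were set side by side and their difference was not tested.

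**Figure D4:**
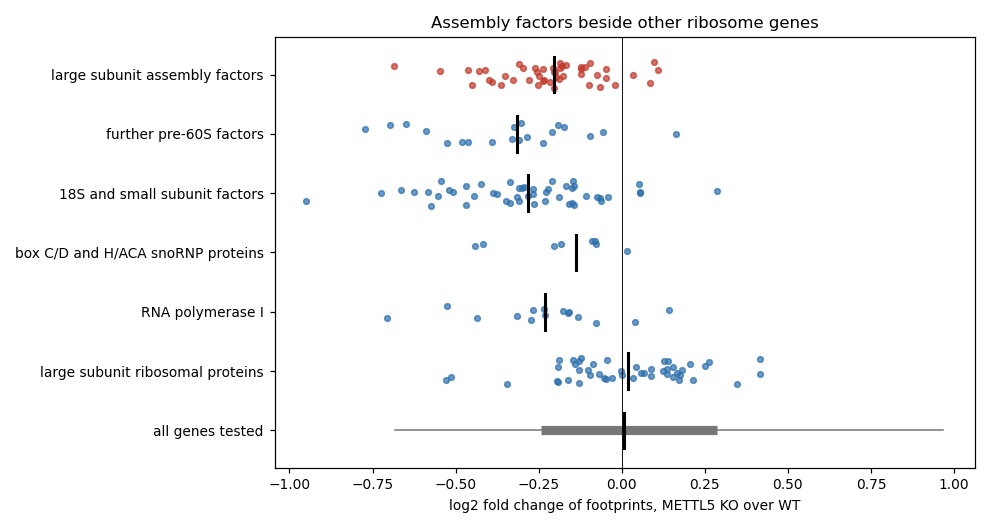
Log2 fold change of footprints, METTL5 KO over WT, for the 48 assembly factors (red) and 5 lists of other ribosome genes (blue), 1 point per gene with the list median as a black bar. The bottom row gives all 12315 genes tested (thick bar, quartiles; thin line, 5th to 95th percentile). Assembly lists lie mostly left of 0 and the ribosomal proteins on both sides of it.

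Markers of cell state also differed between the genotypes. Of all genes tested, 0.617% were called lower and 1.83% higher without the block, and 11.3% lower and 12.7% higher with it. Summed footprints on 12 pluripotent cell markers were 7625 and 7369 CPM in KO libraries and 6038 and 7719 CPM in WT libraries, and 9 of 12 were positive (median log2 fold change 0.10). None of the 12 was called without the block, and 2 were lower and 3 higher with it. The smallest p values were those of Zfp42 (-0.58), Dppa3 (-1.02) and Pou5f1 (0.30). With chromosome medians removed, Zfp42 of chromosome 8 stood at -0.36, Dppa3 of chromosome 6 at -0.64 and Pou5f1 of chromosome 17 at 0.19. Fibroblast markers summed to 380 and 515 CPM in KO libraries, against 163 and 105 CPM in WT libraries. Of 12 fibroblast markers tested, 10 were positive and 2 negative. Without the block 2 were called higher, Col5a1 (1.93) and Col3a1 (3.54 and 8.88 CPM in KO libraries, against 0.669 and 0.238 CPM in WT libraries). With it 8 were called higher and 2 lower. Pdgfra stood at -1.20, while Lum was at 0 in the 4 libraries and Postn in WT replicate 2. Endoderm markers summed to 1226 and 1368 CPM in KO libraries, against 2076 and 2113 CPM in WT libraries. Of 11 tested, 11 were negative, and 4 were called lower without the block, among them Cubn (-2.51), Dab2 (-1.74) and Col4a1 (-1.63). With the block 10 were called lower. Col4a1, on chromosome 8, stood at -1.41 with chromosome medians removed. Afp was at 0 in KO replicate 1 and both WT libraries. Mesoderm markers summed to 34.1 and 44.3 CPM in KO libraries, against 31.7 and 21 CPM in WT libraries. Of 9 tested, 7 were positive and 2 negative. Without the block 3 were called higher, Fgf8, T and Lhx1, each with at most 3 counts in either WT library. With it 6 were called higher and 1 lower, Pdgfra, which is also in the fibroblast list and so is counted in both. Fgf8 had 6.44 and 8.79 CPM in KO libraries, against 0.191 and 0.119 CPM in WT libraries, with Wnt3 at 0 in WT replicate 2 and Gsc in WT replicate 1. The part of these cell state differences in the lower assembly factor footprints was not tested.

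Of the 48 genes, 9 passed the filter on low counts in RNA-seq, and the other 39 had at most 11 counts in a library. Summed, those 39 genes had 159 counts in KO and 234 in WT, in libraries of unequal depth, and 22 of the 48 genes were at 0 in at least 1 library. With no filter the 48 genes had a median log2 fold change of -0.21 and 0 were called by edgeR, and at this depth changes in the mRNA of the 39 genes were not detectable. Of the 9 genes tested, 8 were negative (median log2 fold change -0.23, against 0.01 over the 2087 genes tested) and 0 were called, where 6.37% of all genes were (2.68% lower and 3.69% higher in KO). At an unadjusted p below 0.05 there was 1, Npm1. Without WT replicate 1 the median was -0.46.

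Npm1 had 6 and 9 counts in KO RNA-seq libraries, against 27 and 23 in WT libraries, or 39.4 and 51.9 CPM in KO and 128 and 105 CPM in WT. The groups did not overlap, and its log2 fold change of -1.42 (SE 0.50) had an adjusted p of 0.117 (edgeR). Ncl, whose gene holds small nucleolar RNA genes, had 140 and 160 CPM in KO libraries, against 216 and 214 CPM in WT libraries (-0.61, SE 0.35, adjusted p = 0.334). Rpl7l1, Nip7, Gnl3l and Nsa2 had 30 to 139 counts in each RNA-seq library, with log2 fold changes from -0.14 to 0.07. Nip7 and Rpl7l1 lay above Npm1 in RNA-seq, at 358 to 796 CPM. In footprints they lay far below it, at 163 to 269 CPM against 4737 to 6889 CPM. How well these RNA-seq counts measure mRNA levels was not tested. Nop16 (-0.87), Rrp1b (-1.16) and Noc2l (-0.23) had at most 31 counts in a library, and their SE were 0.56, 0.63 and 0.59. Whether counting used strand is not stated in the labels, and Nsa2, Noc2l and Rrp1b have exons that overlap a gene on the other strand.

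For the same 9 genes the genotype difference in translational efficiency (footprints relative to RNA) was tested with an interaction term in a model of all 8 libraries. None was called by edgeR (9.12% of the 1458 genes tested were, 4.39% lower and 4.73% higher in KO). At an unadjusted p below 0.05 there was again 1, Npm1. The median log2 difference was 0.37, against 0.01 over all genes tested, with 6 positive and 3 negative values. Npm1 stood at 1.06 (SE 0.38, adjusted p = 0.102) and Rrp1b at 1.0 (SE 0.53, adjusted p = 0.273). The median was 0.07 without WT RNA-seq replicate 2, 0.19 without KO RNA-seq replicate 1 and 0.10 without KO RNA-seq replicate 2. These medians cover 8, 12 and 10 assembly factors, since the genes that pass the filter change with the libraries. All translational efficiency values rest on the RNA-seq counts, in which Npm1 lay below Nip7 and Rpl7l1.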

How the data were processed

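Per the submitters' processing notes, reads were aligned with Bowtie2 2.3.4.3 to mm10 and counted with RSEM, and libraries were made with a small RNA kit, per the labels' protocols. The authors deposited, for each gene, an expected count from RSEM, which split reads shared between genes (33 of the 48 genes had a count that was not whole in some footprint library). TPM values, as deposited, gave levels per length and 1 alternative. FPKM, also in the deposited columns, played no part. In the footprint tables the deposited gene length and effective length, in bases (other columns per the file headers), were equal to within 0.01.

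Expected counts were rounded and fitted with edgeR 4.0.16 (robust quasi-likelihood, TMM, filterByExpr) on 2 KO and 2 WT libraries per assay, with Benjamini-Hochberg adjustment over all genes and a threshold of 0.05. SE values were derived from the F statistics, and those printed beside fold changes are from the fits without the block. CPM are expected counts over the library total. In a library, 3 counts came to between 0.261 and 0.357 CPM in Ribo-seq and between 13.7 and 19.7 CPM in RNA-seq (counting error only). Same-numbered footprint libraries deviated together (correlation 0.397 across 12315 genes, which are not independent replicates), and with 2 pairs the numbers are not shown to pair the samples. Steps were tested on simulated counts. Positions came from GENCODE M21.

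The 48 genes and the lists were chosen with earlier results of these data known. Values per library were given for the 12 genes with the smallest p, the 3 highest and 3 lowest by TPM and the 3 highest fold changes, and Ppan, Pelp1 and Nmd3 were added after their values were seen. Of each other list, the 3 genes with the smallest p were named. Alternatives included DESeq2 1.42.0 and limma 3.58.1.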

Additional observations from a re-analysis of the deposited data

How the results depend on the processing

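With the replicate number as a block, 12 assembly factors were called lower in footprints, and of all genes 1394 were called lower and 1566 higher, against 76 and 225 without it. The block with chromosome medians removed, a setting chosen after seeing the data, called 14 assembly factors, 1088 genes lower and 1433 higher. With chromosome medians removed alone 37 genes were called lower. RLE scaling, total count scaling, no filter, DESeq2 and leaving out WT replicate 2 each called 1 assembly factor, Mak16. No filter called 404 genes lower and 706 higher, a mean count of at least 50 called 45 lower and 141 higher, DESeq2 called 122 lower, and limma on log2(TPM + 1) called 121 higher. When each library was left out in turn, the lone library of its genotype was assumed to vary like the other genotype. In these fits 0 to 1 assembly factors were called lower, 24 to 278 genes were called lower and 133 to 483 higher, and the median of the assembly factors lay between -0.30 and -0.11. The count of negative assembly factors stayed between 36 and 45 in the 14 footprint alternatives. Of the 19 genes given per library by the naming rule (Ppan, Pelp1 and Nmd3 were not included), Ddx51 turned positive without WT replicate 1 (0.22) and without KO replicate 2 (0.12), with a lowest value of -0.35, and Rrs1 turned negative without WT replicate 2 (-0.022), with a highest value of 0.20. The median of RNA-seq changes lay between -0.46 and -0.32 when a library was left out (8 to 12 genes passed the filter), and that of translational efficiency between 0.071 and 0.46 (0.19 without KO RNA-seq replicate 1, 0.10 without KO RNA-seq replicate 2, 0.30 without WT Ribo-seq replicate 2 and 0.28 without KO Ribo-seq replicate 2), with 0.057 when no filter was used. The cause of these differences was not tested. The block called 0 assembly factors in RNA-seq or translational efficiency. Depth limits the RNA-seq values, where 39 of the 48 genes did not pass the filter on low counts. With no filter 0 of 48 were called and the median was -0.21.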
